A study of Homo sapiens with 12 samples.

Results

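The epidermal differentiation complex on 1q21 is a run of genes on the long arm of chromosome 1 that encode proteins of the outer layers of stratified epithelium. It was taken as the protein-coding genes that start between chr1:151950000 and chr1:153610000 on hg19, an interval of 1.66 Mb. The interval holds 64 of the 20098 protein-coding genes used: 19 LCE genes, 16 S100 genes, 11 SPRR genes, 7 S100-fused genes, 8 other envelope and late differentiation genes, 2 PGLYRP genes and the neighbour CHTOP. For peak pairs, the interval holds 78 of 24728 in the shortest list and 881 of 493174 in the longest.

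The study asked where BCL9, a Wnt pathway co-activator, and STAT3 phosphorylated at S727 (pSTAT3) meet on chromatin in DCIS.COM, a basal-like human breast cell line that forms ductal carcinoma in situ in mice. Control cells (NS) are labelled a non-scrambled control and carry a non-silencing construct by the study's methods, and BCL9 knockdown (KD) cells carry a short hairpin RNA against BCL9, both in the same line grown with 5% horse serum and with no further treatment named. ChIP-exo, which trims the precipitated DNA with an exonuclease to the edge of the crosslinked protein, gave 3 pSTAT3 and 3 BCL9 libraries from control cells, 2 pSTAT3 and 2 BCL9 libraries from knockdown cells, and 1 CTCF library from control cells as a positive control. The labels call the replicates biological, and an IgG library of control cells was not analysed here.

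Stratified epithelium is renewed from a basal layer. As cells leave that layer they replace their membrane by a cornified envelope, in which involucrin, loricrin, the small proline-rich (SPRR) proteins and the late cornified envelope (LCE) proteins are crosslinked by transglutaminases. The S100-fused genes encode large repetitive proteins such as filaggrin and trichohyalin, and the S100 genes at both ends of the complex encode small calcium-binding proteins, several of which are made in many epithelia, breast epithelium included. Peak lists show where an antibody enriched DNA. They hold no measurement of RNA or protein, so neither the expression of these genes nor the labelled cell type or knockdown could be checked here.

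The sequences below are the 100 bp windows at the strongest control pSTAT3 peak pair of the 8 first regions of the complex at which pSTAT3 and BCL9 co-occurred in control cells, because the results on the S100 genes turn on them. The windows at the start of SPRR1B and beside SMCP were added after their values were seen, because they lie in the envelope genes. Capitals mark a match to the AP-1 string TGANTCA or to the STAT string TTCCNGGAA, and all windows are given on the plus strand of hg19.
upstream of S100A11, chr1:152021021-152021120: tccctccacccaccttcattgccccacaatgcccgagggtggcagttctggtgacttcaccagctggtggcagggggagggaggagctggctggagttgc
downstream of S100A11, chr1:151996768-151996867: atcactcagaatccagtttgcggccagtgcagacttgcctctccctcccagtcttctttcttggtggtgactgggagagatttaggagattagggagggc
S100A2 start, chr1:153540249-153540348: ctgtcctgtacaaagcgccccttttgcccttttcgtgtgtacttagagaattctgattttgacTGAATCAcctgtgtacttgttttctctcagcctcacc
S100A2 exon, chr1:153539086-153539185: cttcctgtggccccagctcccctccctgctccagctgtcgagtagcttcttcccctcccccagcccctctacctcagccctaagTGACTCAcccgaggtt
S100A16 exon, chr1:153581359-153581458: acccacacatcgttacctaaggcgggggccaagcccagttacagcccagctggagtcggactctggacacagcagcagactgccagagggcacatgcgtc
S100A11 exon, chr1:152020243-152020342: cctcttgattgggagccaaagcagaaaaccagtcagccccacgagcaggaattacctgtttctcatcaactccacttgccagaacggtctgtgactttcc
S100A10 intron, chr1:151960932-151961031: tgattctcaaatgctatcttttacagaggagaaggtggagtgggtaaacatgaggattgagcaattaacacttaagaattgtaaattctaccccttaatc
downstream of S100A9, chr1:153337786-153337885: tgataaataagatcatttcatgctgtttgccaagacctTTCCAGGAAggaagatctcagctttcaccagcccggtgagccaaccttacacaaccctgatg
SPRR1B start, chr1:153003501-153003600: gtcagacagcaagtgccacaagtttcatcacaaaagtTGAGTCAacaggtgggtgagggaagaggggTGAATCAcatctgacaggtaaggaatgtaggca
beside SMCP, chr1:152857653-152857752: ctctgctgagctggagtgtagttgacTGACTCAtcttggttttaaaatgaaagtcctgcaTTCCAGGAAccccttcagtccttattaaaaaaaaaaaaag
The capitals are AP-1 matches in the S100A2 and SPRR1B windows, the STAT match in the S100A9 window, and a match to each string in the SMCP window. The other 5 windows held neither string.

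A peak pair is a pair of borders on opposite strands, and its signal in the lists was a whole number of sequence tags times a step of the library. The lists differed in length, from 24728 pairs in control BCL9 replicate 2 to 493174 in knockdown pSTAT3 replicate 2, and control BCL9 replicates 1 and 2 were the 2 shortest. The sequencing depth behind the lists is not known here. Each measure was therefore also taken over the 24728 strongest pairs of every list (equal list length). Pairs tied in signal at the cut were taken by chromosome, chromosome 1 first, and then by position. The cut thus favoured chromosome 1, where the interval lies, to an extent that differs between libraries. Control BCL9 replicate 1, cut from 28690 pairs, kept all 94 of its pairs in the interval. Signal was compared only as a rank percentile within a list, where 100 is the strongest pair.

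Peak pairs of both antibodies were denser in the complex than in the rest of 1q in every library. The control pSTAT3 libraries had 285, 219 and 636 pairs in the interval and the control BCL9 libraries 94, 78 and 271. The knockdown libraries had 726 and 881 pSTAT3 pairs and 242 and 570 BCL9 pairs. Per Mb this was 2.28, 1.91 and 1.70 times the rest of 1q for control pSTAT3, 2.61, 2.50 and 1.64 times for control BCL9, 1.77 and 1.84 times for knockdown pSTAT3, and 2.16 and 1.59 times for knockdown BCL9. The mean log2 ratio was 0.98 ± 0.26 (SD, n = 10), above 0 in 10 of 10 libraries, with an exact two-sided sign-flip permutation p of 0.00195, the smallest that 10 libraries allow, and 0.00977 after Benjamini-Hochberg adjustment over 10 tests. Against the rest of the genome the fold was 3.82 ± 1.03 (SD, n = 10) and the mean log2 ratio 1.89, with the same exact p. Against flanks of 1.66 Mb on both sides, an alternative added after seeing the data, the mean log2 ratio was 0.38, and the fold ranged from 1.04 to 1.61. The CTCF library, a different protein in the same cells, had 745 pairs in the interval, 1.76 times the density of the rest of 1q. Over these whole lists that fold lies inside the range of the other 10 libraries, as does its fold of 1.09 over the flanks. At equal list length the CTCF fold over the flanks was 1.34, just below the other 10 libraries (1.35 to 2.57). All libraries come from 1 cell line, so n counts libraries of that line. The paper reports amplification of BCL9 in this line by in situ hybridization. Copy number within the interval and along 1q is not known here, and its part in these densities was not tested.

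The pairs were concentrated at the S100 ends of the complex. The stretch of S100A10 and S100A11 and the stretch from S100A6 to CHTOP make up 13.8% of the interval. They held 61.4%, 49.3% and 46.4% of the interval's control pSTAT3 pairs and 44.4% and 48.0% of its knockdown pSTAT3 pairs. For BCL9 the shares were 68.1%, 56.4% and 49.8% in control and 53.3% and 47.5% in knockdown cells. The means were 49.9% ± 6.70 for pSTAT3 and 55.0% ± 8.04 for BCL9 (SD, n = 5 each), and the single CTCF library, with 22.7%, lay below all 10. At equal list length the 2 ends held 68.9% ± 6.99 of the pSTAT3 and 65.8% ± 7.96 of the BCL9 pairs (SD, n = 5 each) and 32.2% of the CTCF pairs. The bounds of these stretches were set at gaps between genes after the data were seen, so the shares are a description.

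**Figure D1:**
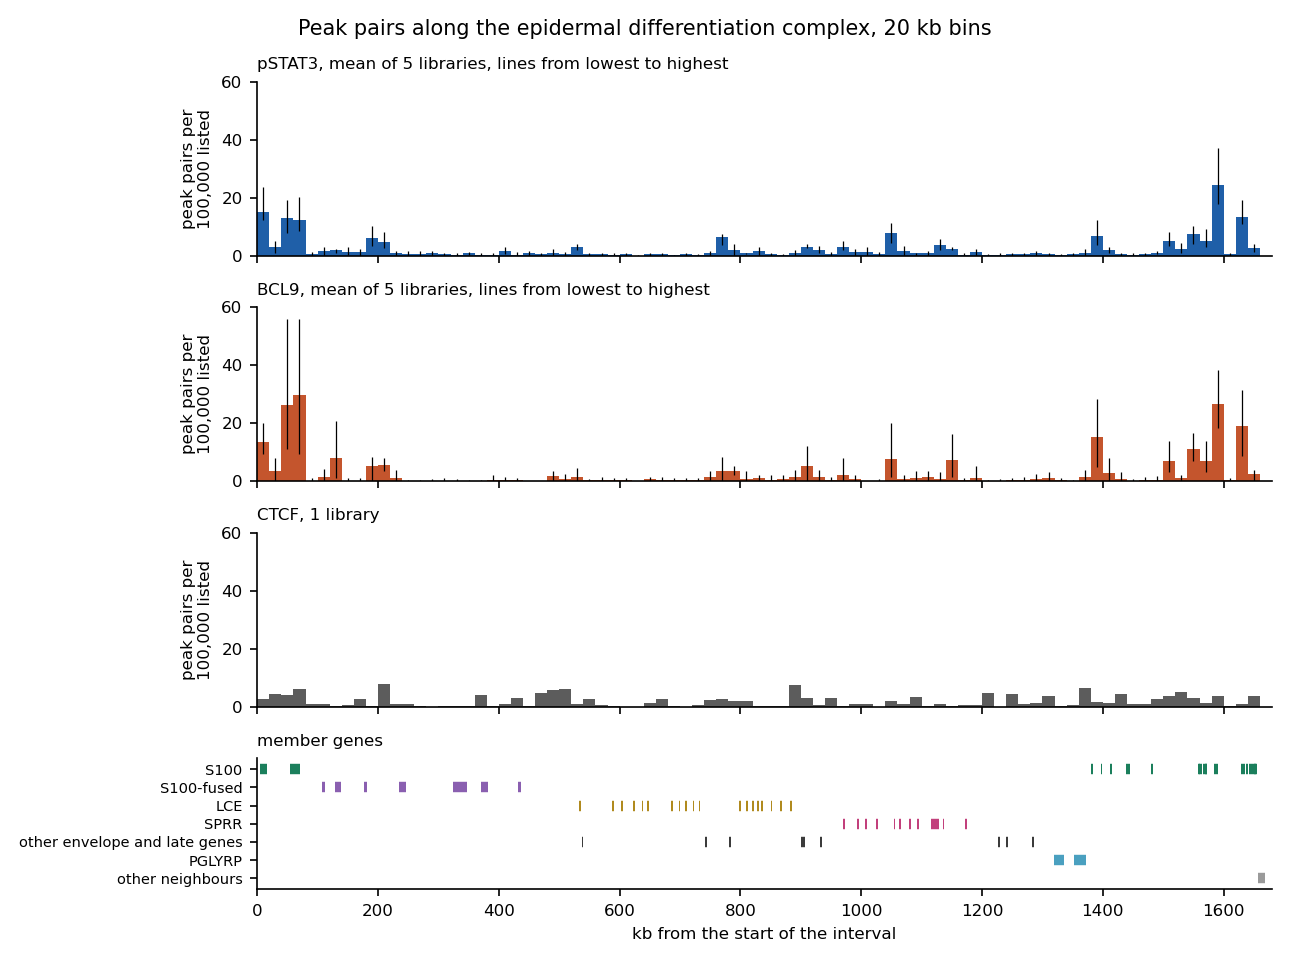
Peak pairs per 100000 listed pairs (vertical axis) in 20 kb bins along the interval (horizontal axis, kb from its start) for pSTAT3 and BCL9 (bars, mean of 5 libraries each; lines, lowest to highest library) and for the 1 CTCF library, above the member genes by family. The highest pSTAT3 and BCL9 bars stand at the S100 genes of both ends, while the CTCF bars are spread along the interval.

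The middle stretches of the complex were all sparser in pairs than both S100 ends, in each of the 10 libraries. The S100A10 and S100A11 stretch had 7.84 ± 2.22 times the pair density of the rest of 1q for pSTAT3 and 11.4 ± 5.35 times for BCL9, against 3.72 times for CTCF. The S100A6 to CHTOP stretch had 6.43 ± 1.65 times for pSTAT3, 6.80 ± 1.78 times for BCL9 and 2.38 times for CTCF. Between them, the stretch of the S100-fused genes had 1.02 ± 0.172 times for pSTAT3 and 0.919 ± 0.153 times for BCL9, where CTCF had 1.61 times. The LCE stretch had the lowest mean, with 0.823 ± 0.197 times for pSTAT3 and 0.645 ± 0.387 times for BCL9, and 1.17 times for CTCF. It was the sparsest stretch in the 3 control pSTAT3 libraries and in control BCL9 replicates 1 and 2, while in the 4 knockdown libraries the S100-fused stretch was sparser, and in control BCL9 replicate 3 the S100-fused and SPRR stretches were. The stretch with IVL, the SPRR genes and LORICRIN had 1.31 ± 0.145 times for pSTAT3 and 1.18 ± 0.510 times for BCL9, and the stretch of the PGLYRP genes and S100A9 to S100A7 had 1.30 ± 0.223 and 1.89 ± 0.716 times (SD, n = 5 each). The last of these middle stretches lay above the rest of 1q in every library, by 1.09 to 1.60 times for pSTAT3 and 1.29 to 2.93 times for BCL9. The share of 36-base words that recur within the interval limits how short reads can be placed. It was 8.92% in the stretch of the S100-fused genes, 4.29% in the LCE stretch and 4.86% in the stretch with IVL, the SPRR genes and LORICRIN. It was 6.23% in the stretch of the PGLYRP genes and S100A9 to S100A7, and 0.827% and 2.09% in the end stretches. The part of these repeats in the densities was not tested.

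**Figure D2:**
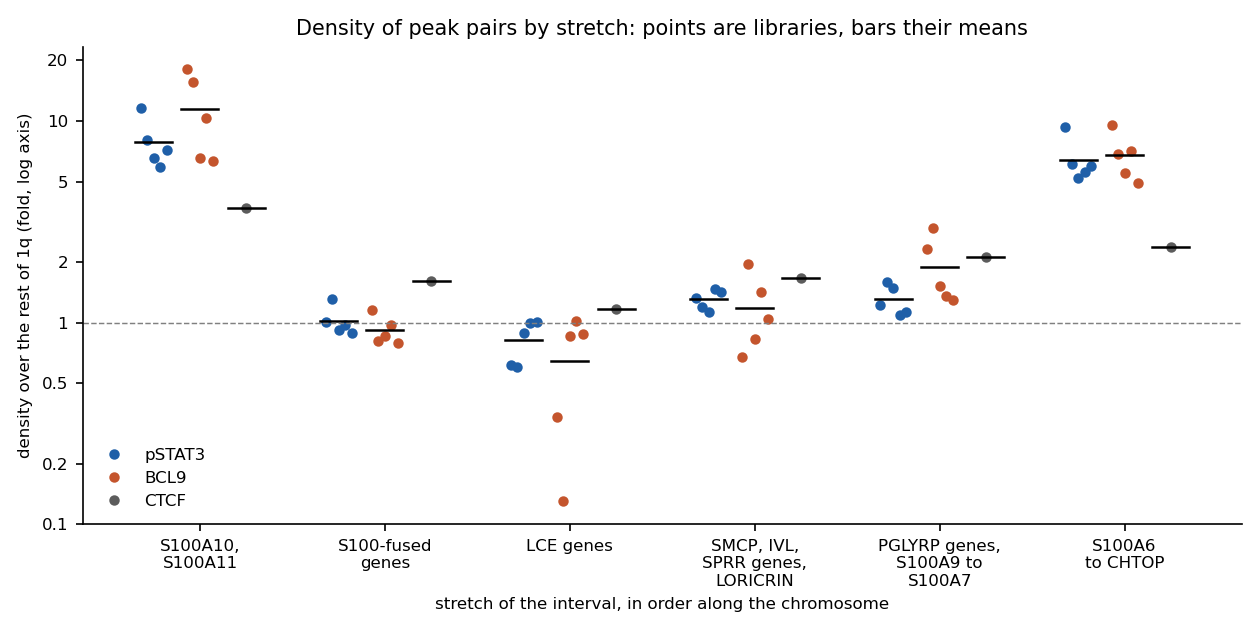
Density of peak pairs in 6 stretches of the interval, in order along the chromosome (horizontal axis), as a fold over the rest of 1q (vertical axis, log scale). Points are libraries, bars are means, and the dashed line is the density of the rest of 1q; the S100 ends lie at 4.95-fold or more in all pSTAT3 and BCL9 libraries and the LCE stretch reaches at most 1.02-fold.

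Most pairs of the interval lay beside a member gene. Of the interval, 48.9% lies within 5 kb of a member. The share of pairs there ranged from 61.0% to 69.1% over the pSTAT3 libraries, from 64.6% to 79.5% over the BCL9 libraries, and was 38.9% in the CTCF library. Genes stand so close that 6.41% to 10.7% of the pairs of a pSTAT3 or BCL9 library were within 5 kb of more than 1 member, so counts of neighbouring genes are not independent. This holds above all for S100A6 with S100A5 and for S100A16 with S100A14, which are close neighbours. It also holds for S100A3, which lies inside the span of S100A4, and for S100A13 with S100A1, whose spans overlap.

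S100A2, a calcium-binding protein of basal epithelial cells, had the most pairs in the complex in every pSTAT3 library. Within 5 kb it had 38, 30 and 61 pairs in control pSTAT3, 73 and 83 in knockdown pSTAT3, 11, 8 and 26 in control BCL9, 22 and 60 in knockdown BCL9, and 19 in CTCF. S100A11, which takes part in the differentiation of keratinocytes and binds annexins, had 30, 22 and 54 control pSTAT3 pairs, 54 and 67 knockdown pSTAT3 pairs, 21, 16 and 26 control BCL9 pairs, 31 and 56 knockdown BCL9 pairs, and 40 CTCF pairs. In the control BCL9 libraries S100A11 was first or level with S100A2, and its lowest count over the 10 libraries was 16. Its neighbour S100A10, the partner of annexin A2, had 28, 14 and 47 control pSTAT3 pairs but 3, 5 and 15 control BCL9 pairs, with 51 and 63 knockdown pSTAT3 pairs, 16 and 32 knockdown BCL9 pairs and 13 CTCF pairs.

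S100A16 had 23, 14 and 40 control pSTAT3 pairs and 9, 6 and 21 control BCL9 pairs, with 46 and 51 knockdown pSTAT3 pairs and 17 and 29 knockdown BCL9 pairs. S100A14, beside it, had 7, 8 and 24 control pSTAT3 pairs and 2, 1 and 8 control BCL9 pairs. Both genes had 9 CTCF pairs, and both had a pair in all 10 libraries of the other antibodies. S100A6, a calcium sensor also known as calcyclin, had 12, 4 and 18 control pSTAT3 pairs and 6, 3 and 11 control BCL9 pairs. S100A5 had 14, 5 and 22 and 6, 3 and 12, of which most are the same pairs. S100A4, linked to cell migration, had 11, 4 and 11 control pSTAT3 pairs and 3, 1 and 5 control BCL9 pairs, and S100A3 had 5, 2 and 6 and 0, 1 and 4. S100A13 and S100A1 had no pair in control BCL9 replicate 2 and had pairs in the other 9 libraries, with 4, 6 and 19 control pSTAT3 pairs for S100A13 and 3, 4 and 9 for S100A1.

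The S100 genes of the inner cluster, from S100A9 to S100A7, encode proteins that take part in inflammation, and S100A9 had the most pairs among them. S100A9, which forms calprotectin with S100A8, had 5, 5 and 16 control pSTAT3 pairs and 6, 5 and 7 control BCL9 pairs, and its 29 CTCF pairs were more than in any of the 10 other libraries. S100A8 had 3, 2 and 5 control pSTAT3 pairs and 0, 2 and 4 control BCL9 pairs. S100A12 had 4, 7 and 8 and 1, 3 and 4. S100A7, or psoriasin, had at most 3 pairs in any library, and in the controls it had 1, 0 and 3 pSTAT3 pairs and 0, 0 and 1 BCL9 pairs.

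Among the genes of the cornified envelope, SPRR1B stood apart. It had 13, 11 and 16 control pSTAT3 pairs, 31 and 24 knockdown pSTAT3 pairs, 1, 5 and 2 control BCL9 pairs, 9 and 13 knockdown BCL9 pairs, and 9 CTCF pairs. It was the SPRR gene with a pair in all 10 libraries, and SPRR2E, with pairs in 8 of the 10, came next. SPRR2E had 6, 4 and 8 control pSTAT3 pairs and 17 and 15 in knockdown cells, but with 0, 0 and 2 control BCL9 pairs. SPRR1A had 0, 1 and 3 control pSTAT3 pairs and none in any of the 5 BCL9 libraries. SPRR3 had 0, 0 and 3, and SPRR2A 0, 0 and 1, control pSTAT3 pairs, and both had a single control BCL9 pair, in replicate 3.

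Involucrin (IVL), an early envelope precursor, had 4, 1 and 3 control pSTAT3 pairs and 8 and 7 in knockdown cells, and 0, 0 and 5 control BCL9 pairs. LORICRIN, the main protein of the envelope, had 2, 0 and 3 control pSTAT3 pairs and 0, 0 and 2 control BCL9 pairs. Neither gene had a pair in control BCL9 replicates 1 and 2, which are the shortest lists. SMCP, a sperm mitochondrial protein that lies next to IVL, had 3, 3 and 10 control pSTAT3 and 0, 3 and 6 control BCL9 pairs. KPRP, a keratinocyte protein rich in proline, had 1, 2 and 2 control pSTAT3 and 1, 1 and 3 control BCL9 pairs and was the only gene within the LCE stretch with a pair in all 10 libraries.

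The S100-fused genes had few pairs, and TCHH was the one with pairs in every library. Filaggrin (FLG), which bundles keratin filaments, had 1, 2 and 4 control pSTAT3 pairs, 0, 0 and 1 control BCL9 pairs, and 2 CTCF pairs. Trichohyalin (TCHH), a protein of the hair follicle, had 2, 2 and 6 control pSTAT3 pairs and 6, 3 and 6 control BCL9 pairs. Cornulin (CRNN) had 0, 0 and 1 control pSTAT3 pairs and no control BCL9 pair. Of the LCE genes, LCE3D had 0, 0 and 2 control pSTAT3 and 0, 0 and 1 control BCL9 pairs. LCE3C, named here after its values were seen, had no pair within 5 kb in any of the 11 libraries.

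Over all 64 members, 13 had a pair within 5 kb in all 10 pSTAT3 and BCL9 libraries, of which 10 were S100 genes and the others TCHH, KPRP and SPRR1B. In 5 or fewer libraries were 29 members, of which 14 were among the 19 LCE genes and 9 among the 11 SPRR genes. The same counts were not taken over all protein-coding genes, so they are a description. In single libraries the share of members with a pair was below that of all genes, except in control BCL9 replicate 2 (28.1%, beside 25.9%). The longest stretch of the interval with no pair ranged from 38.0 kb in control pSTAT3 replicate 3 to 545 kb in control BCL9 replicate 2.

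**Figure D3:**
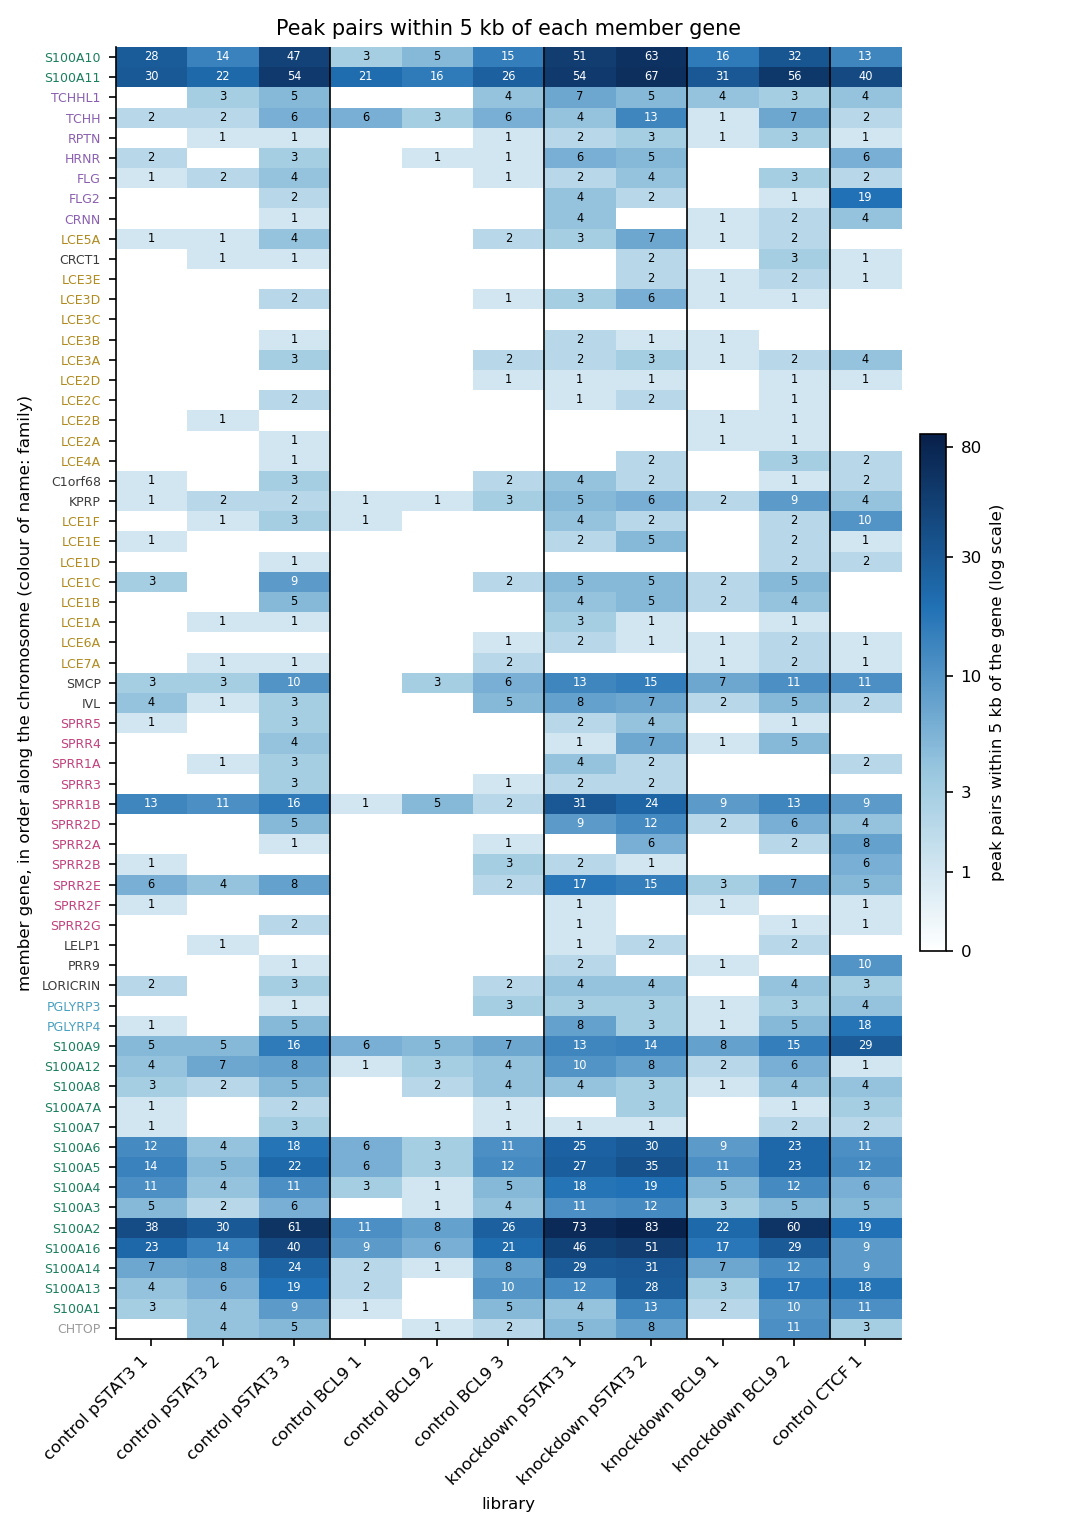
Number of peak pairs within 5 kb of each of the 64 member genes (rows, in order along the chromosome, coloured by family) in the 11 libraries (columns); white cells are 0 and the colour is on a log scale. The rows of S100A10, S100A11, S100A2 and S100A16 are filled in every library, while most LCE and SPRR rows are empty in control BCL9 replicates 1 and 2.

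At equal list length the picture narrowed to fewer genes. S100A2 then had 23, 23 and 24 control pSTAT3 pairs and 28 and 36 knockdown pSTAT3 pairs. For BCL9 it had 11, 8 and 13 control and 13 and 21 knockdown pairs, and for CTCF 8. SPRR1B had 13, 8 and 11 control and 7 and 10 knockdown pSTAT3 pairs, against 1, 5 and 0 control and 7 and 3 knockdown BCL9 pairs and none for CTCF. IVL had 1 control pSTAT3 pair and 3 control BCL9 pairs, all in replicate 3 of the antibody, and FLG and LORICRIN had none in any library. The LCE stretch held 1 to 7 pairs in a pSTAT3 library and 1 to 4 in a BCL9 library, against 10 for CTCF.

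Consensus regions, merged windows seen in at least 2 of 3 control or both knockdown libraries, showed which members had replicated peaks. Within 5 kb, 25 of 64 members (39.1%) had a control pSTAT3 region, beside 43.8% of all protein-coding genes, and 14 of 64 (21.9%) had a control BCL9 region, beside 19.8%. A co-occurring control region, a pSTAT3 region that shares at least 1 bp with a BCL9 region, lay within 5 kb of 14 members (21.9%), beside 13.9% of all genes. Counted from transcription start sites, these were 9 members (14.1%), beside 5.78%. Members are short, and among protein-coding genes no longer than FLG, the longest member at 23075 bp, the share with such a region within 5 kb of the gene was 5.88%. In knockdown cells 35 members (54.7%) had a pSTAT3 region beside 58% of all genes, 18 (28.1%) a BCL9 region beside 32.5%, and 15 (23.4%) a co-occurring region beside 21.7%. From transcription start sites, 13 members had a co-occurring knockdown region, beside 10.4%.

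By family, most members with a co-occurring control region within 5 kb were S100 genes. Of the 16 S100 genes, 11 (68.8%) had one within 5 kb, beside 13.9% of all genes. These 11 were S100A10, S100A11, S100A9, S100A12, S100A8, S100A6, S100A5, S100A4, S100A2, S100A16 and S100A14. They are not independent, since S100A14 counts by the region of S100A16, and S100A6 and S100A5 by the same regions. S100A4 counts by a region that it shares with S100A6 and S100A5. The other members with such a region were SPRR1B among 11 SPRR genes, TCHH among 7 S100-fused genes and SMCP among 8 other envelope and late genes. None of the 19 LCE genes and neither PGLYRP gene had one. IVL had 2 control pSTAT3 regions and SPRR2E 1, but neither had a control BCL9 region, and LORICRIN and FLG had no control region of either antibody.

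The interval held 85 control pSTAT3 regions and 39 control BCL9 regions, and 33 of the former co-occurred with the latter. The co-occurring share was 38.8% of the complex's pSTAT3 regions, against 23.1% over the genome, and 92.3% of its BCL9 regions, against 74.6%. With equally long lists the shares were 60.0% against 43.99% and 66.7% against 43.7%. That cut favoured chromosome 1 among tied pairs, so the interval and the genome were not cut alike. The excess was smaller under 2 other settings. For regions in every library the shares were 24.2% against 20.8% and 72.7% against 70.8%, and without control replicate 1 of both antibodies, which by their file names come from a single sequencing run, 26.9% against 22.2% and 61.90% against 61.85%. The 33 regions were 18 at equal list length, and without control BCL9 replicate 3 they were 13, so the count depends on that library. Without control BCL9 replicate 1 they were 19, and without both single-run controls they were 14. None of the 33 lay in the LCE stretch, and 9 and 8 lay in the end stretches at S100A10 and S100A11 and from S100A6 to CHTOP. By annotation 11 overlapped an exon, 3 an intron and 19 neither, and 11 were within 1 kb of a protein-coding transcription start site. A CTCF window overlapped 13 of the 33 (39.4%), against 22.9% of the 8542 co-occurring control regions of the genome. Most of these windows were weak, with 3 to 7 CTCF tags, where that list has a median of 7 and a lowest of 3. The exceptions were those downstream of S100A9 (25 tags), at SPRR1B (59) and in an intron of S100A5 (12).

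Of these regions 8 had a window in all 10 libraries, and they were also the 8 first by mean rank percentile over the 6 control libraries, which is the order used for the sequences above. The first, chr1:152020554-152021318, lies upstream of the annotated S100A11 gene, at -11456 bp from the nearest protein-coding start (negative is upstream). Its rank percentiles were 97.9, 98.3 and 99.9 for control pSTAT3, 98.3, 96.0 and 99.5 for control BCL9, 99.2 and 99.2 for knockdown pSTAT3, and 93.4 and 99.5 for knockdown BCL9. Its CTCF window reached 46.5. At the start of S100A2, chr1:153540019-153540671 had 98.8, 99.3 and 99.9 for control pSTAT3 and 98.8, 79.0 and 99.7 for control BCL9. A neighbouring S100A2 region, chr1:153538826-153539334, had 99.9, 99.7 and 99.99 for control pSTAT3, 92.7, 85.9 and 93.8 for control BCL9, and no CTCF window. Its strongest pSTAT3 pair held 54, 45 and 159 tags in the control libraries, and the strongest BCL9 pair 11, 16 and 17.

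The region in an exon of S100A16, chr1:153581341-153581865, had 98.7, 95.1 and 99.6 for control pSTAT3 and 73.7, 85.9 and 97.5 for control BCL9, and it had no CTCF window. In knockdown cells it had 99.5 and 99.9 for pSTAT3 and 99.5 and 99.98 for BCL9. The intronic region of S100A10, chr1:151960875-151961376, had 86.9, 89.0 and 99.5 for control pSTAT3 and 58.2, 82.9 and 91.9 for control BCL9. The region downstream of S100A9, chr1:153337608-153338003, was uneven, with 18.4, 95.7 and 92.1 for control pSTAT3 and 94.3, 93.5 and 77.0 for control BCL9, and its CTCF percentile of 78.4 was the highest among the 8.

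The region at the start of SPRR1B, chr1:153003344-153003748, ranked 15th of the 33 and lies at -133 bp from the start site. Its percentiles were 96.8, 94.3 and 99.6 for control pSTAT3 and 98.1 and 99.5 for knockdown pSTAT3. For BCL9 it had no window in control replicate 1, 41.7 and 68.4 in replicates 2 and 3, and 94.3 and 96.6 in knockdown cells. The pSTAT3 values of the conditions overlap and the BCL9 values do not. Over the genome, 47.3% of BCL9 regions were likewise higher in knockdown cells without overlap, and control BCL9 replicates 1 and 2 are the shortest lists. At equal list length the BCL9 pairs within 5 kb of SPRR1B overlapped, with 1, 5 and 0 in control and 7 and 3 in knockdown cells. The region at the start of SPRR1B had no CTCF window. A second SPRR1B region, chr1:153005323-153005797, had a CTCF percentile of 94.4 and no window in control BCL9 replicate 3.

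**Figure D4:**
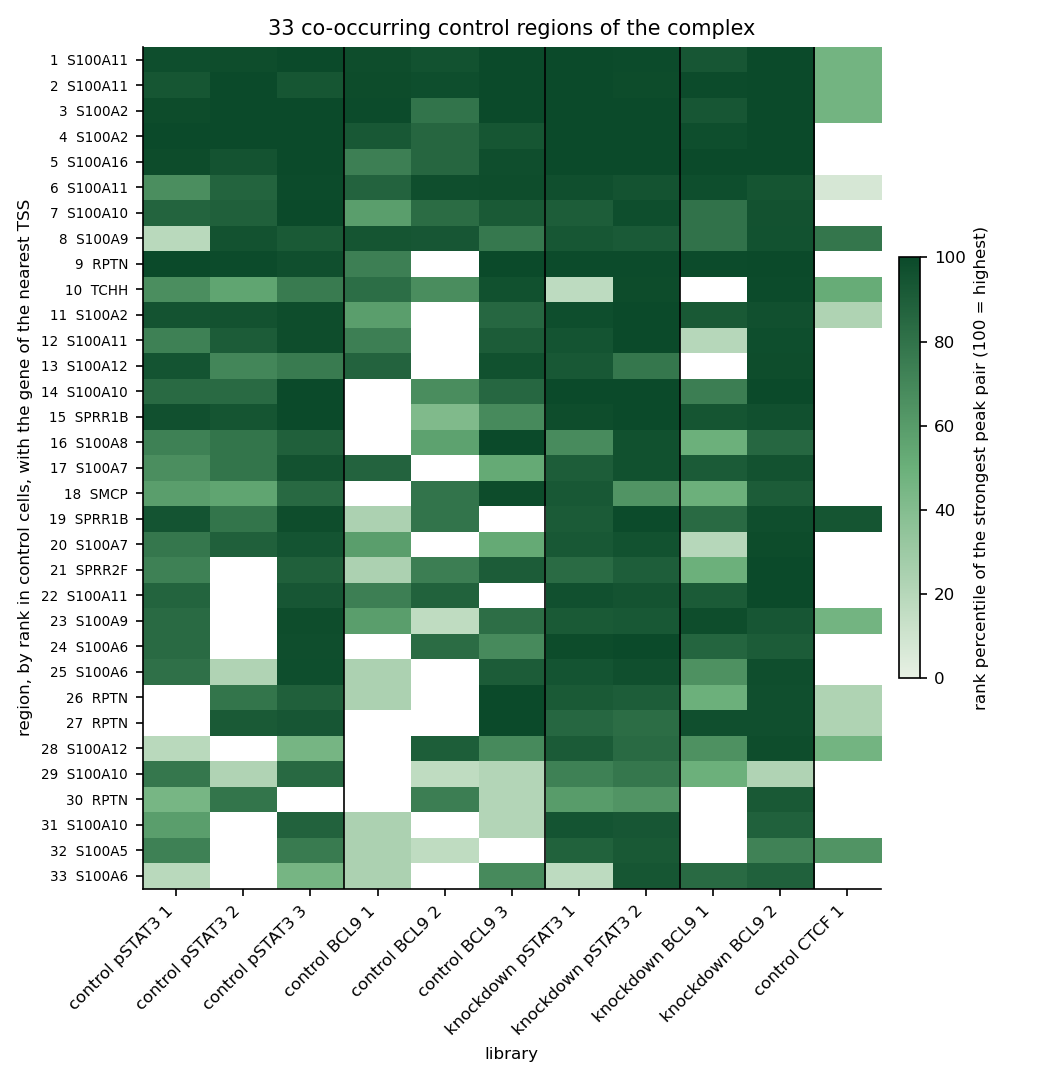
Rank percentile of the strongest peak pair (colour, 100 is the highest signal of the list) of the 33 co-occurring control regions (rows, by rank, named by the nearest transcription start site) in the 11 libraries (columns); white cells have no window. The first 8 rows are filled in all pSTAT3 and BCL9 libraries, and white cells lie mostly in control BCL9 replicates 1 and 2, control pSTAT3 replicate 2 and CTCF.

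The strings searched in the 100 bp window of each of the 33 regions, on both strands, were compared with the same windows of all 8542 co-occurring control regions. AP-1 (TGANTCA) was in 11 windows (33.3%, against 27.7%), and in its form with G or C in the middle in 8 (24.2%, against 21.8%). The STAT string (TTCCNGGAA) was in 2 windows, those downstream of S100A9 and at SMCP (6.06%, against 0.609%). C/EBP (TTGCNNAA) was in 5 (15.2%, against 11.8%), TEAD (GGAATGT) in 2 (6.06%, against 4.95%), KLF (GGGNGTGG) in 1 (3.03%, against 4.71%) and grainyhead (AACCNGTT) in 1 (3.03%, against 1.42%). The p63 string and the ETS string (CNGGAAGT) were in none, against 0.620% and 2.95%. The strings were counted separately, so 1 window can count for several, as that of SMCP does for AP-1 and STAT. The median GC content of the windows was 51%, against 47% over the genome. With 33 windows, 1 window is 3.03%, and these shares are a description.

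Knockdown of BCL9 was compared with control by exact two-sided permutation of the 5 libraries of an antibody, which cannot give a p below 0.1. The complex held 0.177% ± 0.0028 (SD, n = 2) of the knockdown and 0.211% ± 0.0362 (n = 3) of the control pSTAT3 pairs, with an exact p of 0.4. For BCL9 the shares were 0.211% ± 0.0592 (n = 2) and 0.275% ± 0.0807 (n = 3), also with an exact p of 0.4. With lists cut to equal length both differences turned, to 0.0270 percentage points higher in knockdown cells for pSTAT3 and 0.0586 for BCL9, with exact p-values of 0.6 and 0.3. Ties at that cut favoured chromosome 1. Over pairs above the median signal, a limit that splits no ties, the differences stayed negative. They were -0.0520 for pSTAT3 and -0.0907 for BCL9, with an exact p of 0.4 each. The median rank percentile of the interval's pairs was 65.5 ± 2.99 (n = 2) in knockdown and 66.4 ± 4.45 (n = 3) in control cells for pSTAT3, exact p of 0.9. For BCL9 it was 52.7 ± 4.43 and 56.0 ± 2.78, exact p of 0.4. In each of these measures the knockdown libraries overlapped the control libraries.

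The mean share of members with a pair within 5 kb was higher in knockdown cells over the whole lists, which differ in length. The share was 85.2% ± 1.10 (n = 2) of members in knockdown and 62.5% ± 20.3 (n = 3) in control pSTAT3 libraries, exact p of 0.4, and 75.0% ± 17.7 and 38.5% ± 20.8 for BCL9, exact p of 0.3. Over all protein-coding genes the share was 59.6%, 63.9% and 90.1% in the control and 89.9% and 92.0% in the knockdown pSTAT3 libraries, and 29.9%, 25.9% and 74.0% and then 63.04% and 88.7% for BCL9. Over pairs above the median signal the share of members stayed higher in knockdown cells. The difference was 17.4 percentage points for pSTAT3 and 14.6 for BCL9, with an exact p of 0.4 each. With lists of equal length the difference turned to -4.69 percentage points for pSTAT3, exact p of 0.6, and -7.29 for BCL9, exact p of 0.1. Over all protein-coding genes the shares at that length were 14.8%, 22.7% and 15.3% in the control and 14.9% and 14.8% in the knockdown pSTAT3 libraries, and 26.4%, 25.9% and 22.4% and then 26.3% and 19.4% for BCL9. The condition differences of the antibodies did not differ beyond the spread of the libraries, with exact permutation p-values over 100 assignments of 0.67 for the share of pairs, 0.62 for the median percentile and 0.62 for the share of members.

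**Figure D5:**
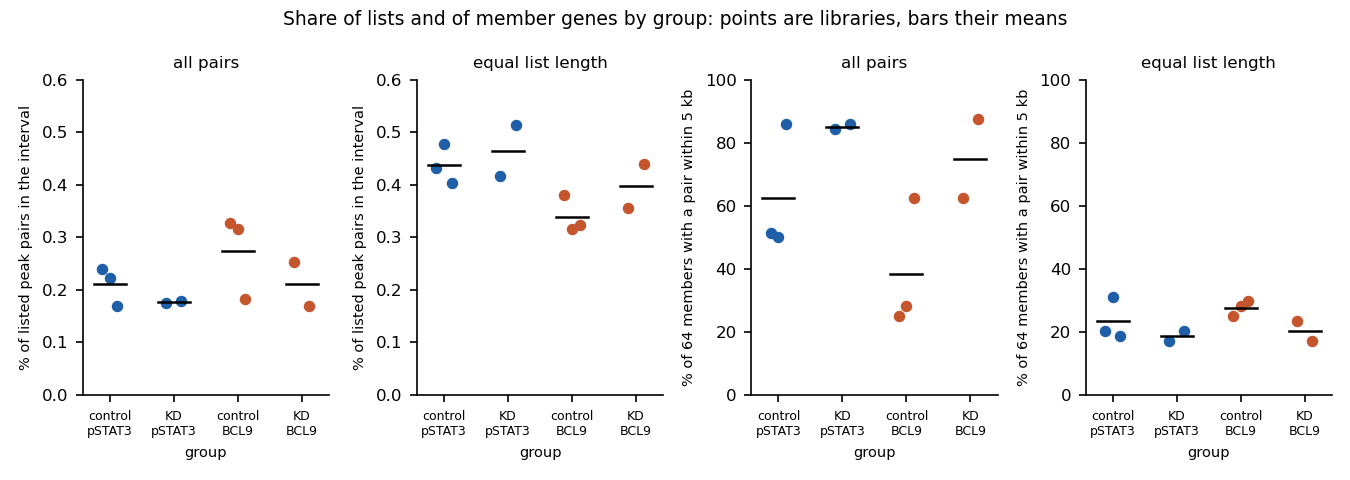
Percent of listed peak pairs in the interval (left panels) and percent of the 64 members with a pair within 5 kb (right panels) in control and BCL9-knockdown (KD) libraries, over all pairs and at equal list length. Points are libraries and bars their means; the knockdown means lie below control for the share of pairs and above it for the share of members over all pairs, and the other way round at equal list length.

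Single regions were read by whether the conditions' rank percentiles overlapped, with 0 for a library without a window, and both knockdown pSTAT3 lists were longer than all control ones, while knockdown BCL9 replicate 1 was shorter than control BCL9 replicate 3. Of the complex's 131 pSTAT3 regions, seen in either condition, 58 (44.3%) were higher in both knockdown libraries than in all controls, beside 48.7% of such regions over the genome, and 1 was lower, beside 0.448%. Of 70 BCL9 regions 29 (41.4%) were higher, beside 47.3%, and 1 was lower, beside 0.496%. When percentiles were taken over consensus regions in place of whole lists, 22 pSTAT3 regions (16.8%) were higher and 19 (14.5%) lower, beside 12.6% and 13.3%. By the same measure 9 BCL9 regions (12.9%) were higher and 7 (10%) lower, beside 16.9% and 12.3%. Which regions count as higher thus depends on the reference taken for the percentile.

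The 2 regions that were lower in knockdown cells were both weak. The pSTAT3 region, chr1:152155154-152155352, lies between RPTN and HRNR and had 4, 6 and 6 tags in the control pSTAT3 libraries and no window in either knockdown pSTAT3 library, while the CTCF library had 129 tags there. The BCL9 region, chr1:152082217-152082407, lies in an exon of TCHH and had 5, 9 and 6 tags in the control BCL9 libraries and no window in the knockdown BCL9 libraries. Among the regions higher in knockdown cells were, for pSTAT3, 2 upstream of IVL with 4 to 9 knockdown tags and 1 in an exon of LORICRIN, with 9 and 7. For BCL9 the 29 higher regions included 4 near S100A2 and both SPRR1B regions, and the rest were spread along the interval. Of those near S100A2, chr1:153542095-153542261 had 7 and 5 knockdown BCL9 tags, the fewest that these lists hold.

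In knockdown cells 48 pSTAT3 regions of the complex co-occurred with BCL9 regions, against 33 in control cells, and 29 of the 33 control regions overlapped one of the 48. Over lists of equal length the order of the counts turned, to 12 in knockdown and 18 in control cells. Ties at that cut favoured chromosome 1 to an extent that differs between libraries. Of the 48, 20 did not overlap a control co-occurring region, and of these 6 lay at S100A10 and S100A11, 9 from S100A6 to CHTOP, 4 in the LCE stretch and 1 at TCHHL1. The 4 in the LCE stretch were nearest to the starts of KPRP and LCE1F, and no LCE gene had a BCL9 region within 5 kb in either condition.

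The antibodies were compared over both conditions. The complex held 0.197% ± 0.0316 of the pSTAT3 and 0.250% ± 0.0732 of the BCL9 pairs (SD, n = 5 each), exact two-sided permutation p of 0.167 (5 against 5 libraries cannot go below 0.00794). Over lists of equal length the order turned, to 0.449% ± 0.0455 and 0.363% ± 0.0505, with an exact permutation p of 0.0397, not adjusted. Ties at that cut favoured chromosome 1 to an extent that differs between libraries, so this value cannot show a difference between the antibodies. Over pairs above the median signal, a limit that splits no ties, pSTAT3 minus BCL9 was -0.0459 percentage points, exact permutation p of 0.357. Members with a pair within 5 kb were 71.6% ± 19.0 for pSTAT3 and 53.1% ± 26.3 for BCL9, exact permutation p of 0.238, and, over lists of equal length, 21.6% ± 5.57 and 24.7% ± 4.87, exact permutation p of 0.405. After adjustment over the 10 tests, none of the 8 comparisons between conditions or antibodies over all pairs was below 0.444.

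Genes of the same program elsewhere in the genome were read from a list of 26, and all were found. Within 5 kb, 17 had a control pSTAT3 region, beside 43.8% of all genes, 9 a control BCL9 region, beside 19.8%, and 6 a co-occurring control region, beside 13.9%. The 6 were TP63, the master factor of stratified epithelium, with 13 such regions, GRHL3 with 5 and ZNF750 with 1, which are factors of late differentiation, PPL with 3 and EVPL with 1, which encode the plakin proteins periplakin and envoplakin, and ABCA12, a lipid transporter, with 1. In knockdown cells 14 of the 26 had a co-occurring region, beside 21.7% of all genes. TGM1, the transglutaminase that crosslinks the envelope, had 0, 0 and 1 control pSTAT3 pairs and no control BCL9 pair, and KRT1 the same, while KRT10 had 2, 2 and 6 control pSTAT3 pairs and no control BCL9 pair. TP63, ABCA12, GRHL3 and PPL are long genes, and a long gene has more room for a region, which was not adjusted for here.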

How the data were processed

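ChIP-exo peak pairs of 11 libraries (3 control and 2 knockdown libraries each of pSTAT3 and BCL9, and 1 CTCF library) were used, and IgG was not analysed here. The deposited lists give, for each library on its own, the position of each peak pair on hg19 and a signal, which the authors made with a peak-pairing program named cwpair in the files. The submitters' processing notes name bcl2fastq and hg19, with no aligner (not given in the sources used here). In addition the study's methods name merged peaks, which were not used here. In every list the signal was a whole number of tags, within 0.01 tags, times a step of the library, so it was used only for ranks within a list and for tag counts. The number of reads behind a list is not known from the lists, and no counting interval is given. Lists of 24728 to 493174 pairs differ in how weak a pair they admit, which changes counts of pairs and of genes with a pair.

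Midpoints of pairs were assigned to the interval and to genes (within 5 kb of the gene) of GENCODE 44 lifted to GRCh37, the same assembly as hg19. Windows of 100 bp round midpoints were merged across libraries of an antibody and condition where they shared at least 1 bp, and a consensus region had windows in at least 2 libraries. Sequences were read from GRCh37 with pysam 0.24.0. Strings were searched on both strands. Percentages, mean log2 ratios and medians were taken per library, and libraries were compared by exact two-sided permutation tests in Python 3.11.15 with scipy 1.17.1, numpy 2.4.6 and pandas 2.3.3, with Benjamini-Hochberg adjustment over 10 tests. The labels call the replicates biological, but all come from 1 cell line, so p-values measure the spread between these libraries. Region counts had no test. The scripts were tested on simulated lists.

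The members, gene lists and named genes were chosen with earlier results of these data known. The 28 named genes were 18 set by name for their known roles and 10 more with a control consensus region within 5 kb, taken by the number of libraries with a pair and then by their best rank percentile, so the counts of those 10 are a description. The SPRR1B and SMCP windows, LCE3C and the bounds of the 6 stretches were chosen after their values were seen. Alternatives were equal list length, pairs above the median signal, other reaches from the gene, other region rules, the replicate block and leaving out each library. At equal list length, pairs tied at the cut were taken by chromosome and position, which favoured chromosome 1. Added after the data were seen were flanks as the comparison, leaving out both controls made from a single sequencing run (by their file names), a limit on gene length and the AP-1 form with G or C in the middle.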

Additional observations from a re-analysis of the deposited data

How the results depend on the processing

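The comparisons of the percent of pairs and of the percent of members, between conditions and between antibodies, changed direction at equal list length. Ties at that cut favoured chromosome 1, and the sequencing depth is not known. Over pairs above the median signal the directions stayed. The differences in percent of pairs were then -0.0520 and -0.0907 for knockdown minus control in pSTAT3 and BCL9, and -0.0459 for pSTAT3 minus BCL9. Those in percent of members were 17.4, 14.6 and 16.25 in the same order. The median percentile was not compared between conditions at equal list length. With the 24728 strongest pairs of every list, the knockdown minus control difference in the percent of pairs in the complex reversed to 0.0270 for pSTAT3 (exact permutation p of 0.6) and 0.0586 for BCL9 (exact p of 0.3), and pSTAT3 minus BCL9 to 0.0857 (exact p of 0.0397, not adjusted). The percent of members with a pair reversed to -4.69, -7.29 and -3.13 in the same order. Over pairs above the median signal the difference in median percentile reversed to 3.48 for pSTAT3 and 7.25 for BCL9. Equal length left 18 co-occurring control, 12 co-occurring knockdown and 30 control pSTAT3 regions. Regions in every library of the group numbered 8 co-occurring control, 33 control pSTAT3 and 11 control BCL9. Regions in any library numbered 106, 516 and 205, and 157 co-occurring knockdown. Without the single-run controls they numbered 14, 52 and 21. Percentiles over consensus regions gave 22 higher and 19 lower pSTAT3 regions and 9 and 7 BCL9 regions.

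Leaving out 1 library at a time, the difference in percent of pairs lay between -0.0541 and -0.0193 for pSTAT3, between -0.110 and -0.0219 for BCL9, and between -0.0726 and -0.0331 for the antibodies. The log2 density over the rest of 1q ranged from 0.93 to 1.01 and over the genome from 1.82 to 1.93, each with an exact permutation p of 0.00391, the smallest that 9 libraries allow. The median percentile difference ranged from -3.18 to 1.26 for pSTAT3, reversing to 1.26 without control replicate 2 and to 1.22 without knockdown replicate 2, and from -6.42 to -0.166 for BCL9. The percent of members spanned 16.4 to 34.4 for pSTAT3, 23.96 to 49.0 for BCL9 and 11.4 to 27.0 for the antibodies. Co-occurring control regions ranged from 13, without control BCL9 replicate 3, to 30, and were 19 without control BCL9 replicate 1. Control pSTAT3 regions ranged from 40, without replicate 3, to 64, and were 52 without replicate 1. Control BCL9 regions ranged from 14, without replicate 3, to 26, the values being 21 without replicate 1 and 26 without replicate 2. With the replicate number as a replicate block the differences in percent of pairs were -0.0541, -0.110 and -0.0526, with exact permutation p-values of 0.5, 0.5 and 0.125, and no other call changed. Between libraries with the same number, deviations from the group means over 20 kb bins correlated by -0.236 to 0.137 across bins. These bins cover only the interval, so they cannot show whether such libraries share a batch. By their file names, control replicate 1 of both antibodies comes from a single sequencing run.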
